A study of Homo sapiens with 8 samples.

Results

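Compound 5 and compound 6 are a pair of structurally related phenolic antioxidants used in plastic production, and their effects on the transcriptome were set directly against each other. The comparison rests on 4 of the 8 samples of the series, 2 treated with compound 5 (treatment label tetrabut) and 2 treated with compound 6 (treatment label cyclohexil). All 8 samples are CYP3A4-overexpressing HepG2 cells, an established human hepatocellular carcinoma line to which extra CYP3A4 was added, exposed for 24 h. Cells received either 0.2% DMSO as vehicle control (2 samples), compound 4 (2 samples), compound 5 or compound 6, the compounds each at its own IC50, a concentration defined by its effect on cell viability. The DMSO samples serve here to show the direction of a difference and, like the compound 4 samples, to help estimate the spread behind the p-values. All treated and control cells share the overexpressed CYP3A4 and growth in blasticidin, and the promoter that drives CYP3A4 is not given in the sources used here. By the label, replicate 1 of compound 5 joins the reads of 2 sequencing indices. In every group the labels give replicate 1 as day 1 and replicate 2 as day 2, read here as the day of the replicate and not as exposure time.

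Both molecules consist of phenol rings joined by a short carbon bridge. In compound 5 the bridge is an ethylidene group and the rings carry tert-butyl groups, whereas in compound 6 the bridge is a methylene group and each ring carries a cyclohexyl and a methyl group. The IC50 values came from a viability assay that ran longer than the exposure used for RNA, so the compounds shared the exposure time but not the concentration, and were not matched by viability at the time of sampling. Structure and concentration cannot be told apart in any difference given here. In hepatocytes, CYP3A4 oxidizes many drugs and pollutants, and its gene is a classical target of the pregnane X receptor. Hydrophobic chemicals can also meet other sensors of the liver cell: SREBP proteins in the membrane of the endoplasmic reticulum (ER) switch on cholesterol synthesis when sterols run low, the unfolded protein response raises chaperones, the transcription factor ATF4 carries the integrated stress response, NRF2 carries the antioxidant response, and MTF1 switches on metallothioneins when free zinc rises.

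Library totals over genes were 11398441 and 13308975 counts for compound 5 and 9472261 and 12052136 counts for compound 6, beside 9955207 and 11725128 in DMSO. At these depths, 3 counts correspond to between 0.225 and 0.317 CPM, the usual scaling of counts by library total, here without TMM factors, and this floor covers only the error of counting. Replicates differed by a median of 0.148 on the log2 scale with compound 5 and 0.177 with compound 6, and by more than counting noise in both groups. The labels place the replicates on different days but do not say whether they came from separate cultures. The p-values, from a fit without a term for the day, thus measure the spread between these samples, which may be technical. All 6 hepatocyte markers were present, with a summed level between 19400 and 30400 CPM per sample over the series, and 0 of them passed the test between the compounds in edgeR or DESeq2 (0 at an unadjusted p under 0.05). Endothelial markers together reached at most 2.07 CPM and fibroblast markers at most 8.78 CPM. Blood cell markers, of which 4 of 6 were above 0 in any sample, summed to 38 and 34.9 CPM under compound 5 and to 52.3 and 49.2 CPM under compound 6. Most of these counts fell on CD68, a gene that shares 77.3% of its 31-base stretches with other genes, and the defining leukocyte marker PTPRC was at 0 in all 8 samples, which allows up to 0.317 CPM.

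Compound 5 and compound 6 differed at genes of many pathways, above all metallothioneins, immediate early genes, ER chaperones and sterol enzymes. In edgeR's quasi-likelihood test of 13404 genes, 1329 differed between the compounds at a Benjamini-Hochberg adjusted p under 0.05, which is 9.91% of the genes tested. With compound 5, 638 of them were higher (4.76%) and 691 lower (5.16%). The genes that were higher had a median log2 difference of 0.59 and those that were lower -0.77. More than 2-fold differences were found for 78 of the higher and 193 of the lower genes, and more than 4-fold differences for 10 and 21 of them. For the 12072 remaining genes with a finite interval, the 95% interval of the difference stayed within 1.5-fold in either direction for 6166. For the others a difference of that size cannot be dismissed with 2 samples a group. Some of their intervals, such as that of ABCA1 below, lay to a single side of no difference, though the adjusted p did not pass. Throughout, a log2 difference is compound 5 minus compound 6, given with its standard error (SE), and 2 samples stand behind each group.

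The balance of directions depended on how libraries were scaled. With TMM scaling, 48% of the called genes were higher with compound 5, against 28.7% under upper-quartile scaling, 28.4% when library size served as the scale, and 60.6% in DESeq2, which has its own size factors. Upper-quartile scaling moved the median of all genes from -0.02 to -0.10. The number of calls also rested on single samples, as the bar plot of calls under each setting shows. Without compound 5 replicate 1 only 143 genes were called, without compound 5 replicate 2 278, without compound 6 replicate 1 211 and without compound 6 replicate 2 1016. Leaving out DMSO replicate 1 gave 856 calls and leaving out compound 4 replicate 1 gave 1875. Of the 137 called genes that the naming rule selects, 36, 52, 49 and 113 were still called without compound 5 replicate 1, compound 5 replicate 2, compound 6 replicate 1 and compound 6 replicate 2, respectively. The gene lists below name 1008 genes, of which 936 passed the filter on low counts and were tested, and the share of called members in a list is to be read against 9.91% over all genes.

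**Figure D1:**
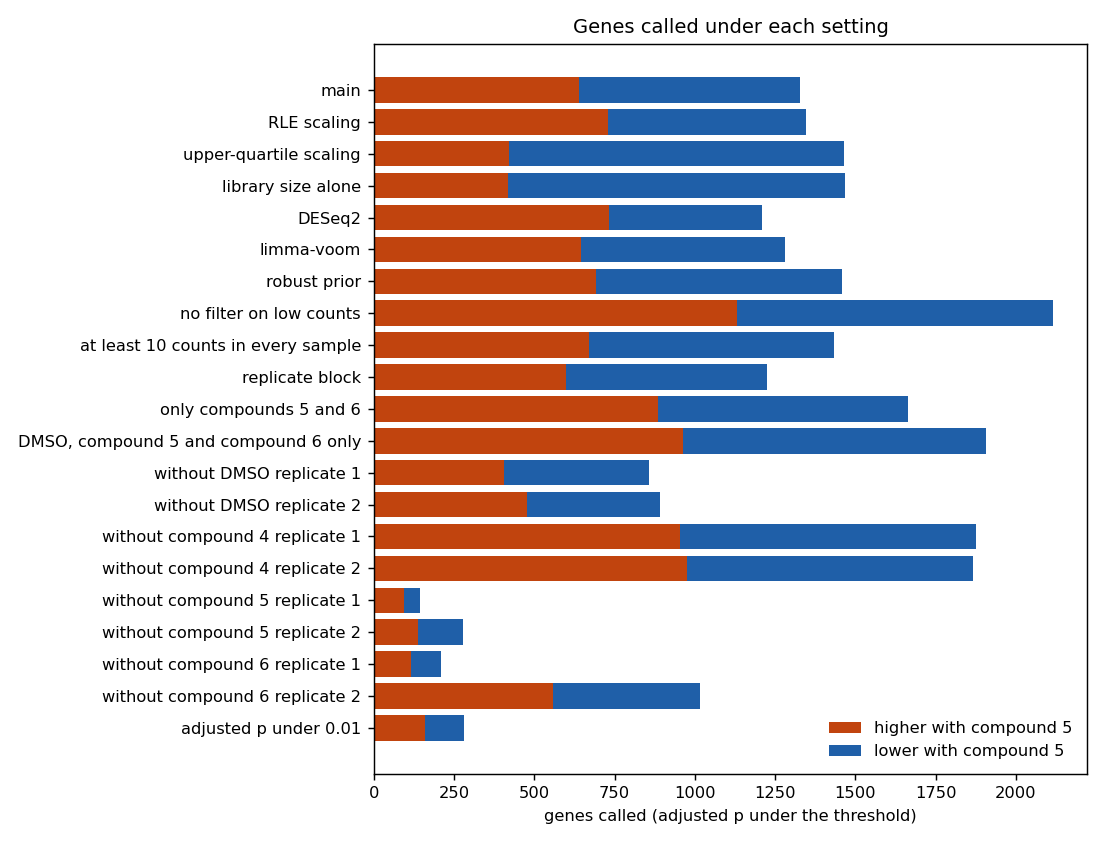
Number of genes called between compound 5 and compound 6 under each setting (horizontal axis), split by direction. The topmost bar holds 638 higher and 691 lower genes, and the shortest bar, without compound 5 replicate 1, holds 143 genes.

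Among called protein-coding and long noncoding genes with a symbol and a mean of at least 1 CPM, the largest differences in favour of compound 5 included secreted proteins and transporters. KNG1, which encodes the plasma protein kininogen, had 58 and 93 counts with compound 5 and 3 and 1 counts with compound 6 (log2 difference 5.01 ± 0.70 SE, adjusted p = 0.000964). The ratio of these counts, scaled for library size, was 34.7 with an exact 95% counting interval of 13.3 to 129. CXCL8, the neutrophil chemokine interleukin 8, stood at 9.62 and 15.3 CPM under compound 5, 1.46 and 2.55 CPM under compound 6 and 0.394 and 0.575 CPM in DMSO (log2 difference 2.61 ± 0.35 SE, adjusted p = 0.0027). Both groups therefore lay above DMSO, and compound 5 lay 6.09-fold above compound 6.

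SLC51A and SLC51B encode the subunits of the bile acid exporter OSTα/β of the basolateral membrane, and both belonged to the 10 largest differences among these genes. The level of SLC51A was 33.3 and 41.3 CPM under compound 5, 7.92 and 7.33 CPM under compound 6 and 9.65 and 9.12 CPM in DMSO (log2 difference 2.29 ± 0.17 SE, adjusted p = 0.000196). For SLC51B it was 80.3 and 90.4 CPM under compound 5, 17.4 and 22.7 CPM under compound 6 and 11.2 and 9.45 CPM in DMSO (log2 difference 2.08 ± 0.16 SE, adjusted p = 0.000196). The subunits were thus 4.9-fold and 4.24-fold higher under compound 5, and with compound 6 the level of SLC51A was slightly under both DMSO samples. The others were COL2A1 (a cartilage collagen chain, 2.75 and 3.14 CPM against 0.209 and 0.741 CPM), FOSB, the long noncoding RNA UCA1 (12.8 and 7.07 CPM against 1.67 and 3.46 CPM), the cytokine gene CLCF1, and CDRT4 and SYS1-DBNDD2. Compound 6 gave 0 and 1 counts for CDRT4 and 3 and 0 counts for SYS1-DBNDD2, and 73.2% and 90.3% of the 31-base stretches of their transcripts also occur in other genes, so their counts could be split differently.

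In the opposite direction, MIXL1, which encodes a homeobox transcription factor, showed 3.94 and 4.79 CPM under compound 5, 22.7 and 19.2 CPM under compound 6 and 19.7 and 19.2 CPM in DMSO (log2 difference -2.25 ± 0.17 SE, adjusted p = 0.000196). The compound 6 samples were near DMSO, whereas compound 5 lay 4.76-fold below them. SCNN1A, the alpha subunit of the epithelial sodium channel, reached 9.07 and 7.69 CPM under compound 5, 35.03 and 29.2 CPM under compound 6 and 18.02 and 12.5 CPM in DMSO (log2 difference -1.94 ± 0.20 SE, adjusted p = 0.000964), so that it lay below DMSO with compound 5 and above DMSO with compound 6. The matrix metalloproteinase gene MMP11, the ciliary transport gene TTC30B, the Wnt antagonist gene SFRP4 and 4 noncoding genes (MOCS2-DT, SGMS1-AS1, LENG8-AS1 and SLC9A3-AS1) had log2 differences between -2.20 and -1.84 at levels of at most 4.28 CPM. SFRP4 was no longer called with the replicate block (adjusted p = 0.0585). HPR, a haptoglobin relative, had 0.733 and 0.942 CPM against 5.01 and 2.64 CPM under compound 6, and it shares 39% of its 31-base stretches with other genes. Pseudogenes and genes without a symbol were left out of this ranking, and some of them differed more than genes named here, such as ITGB1P1 with 0 and 0 CPM against 2.82 and 4.12 CPM and AOC4P with 9.26 and 13.97 CPM against 3.75 and 2.72 CPM, which were chosen after their values were seen.

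CYP3A4 itself, at chr7:99756960-99784265 on the minus strand of GRCh38, differed between the compounds. Its level was 371 and 421 CPM under compound 5, 171 and 171 CPM under compound 6 and 198 and 207 CPM in DMSO. The compound 5 samples lay above and the compound 6 samples below both controls, and the groups were 2.32-fold apart (log2 difference 1.22 ± 0.13 SE, adjusted p = 0.00138). Counts of the endogenous gene and of the introduced CYP3A4 cannot be told apart in a gene-level table. Of the 11 tested genes in the list of CYP3A enzymes and of pregnane X receptor and constitutive androstane receptor targets, 4 were higher and 1 was lower with compound 5, and the list median was 0.21 against -0.02 over all genes. This median turned to -0.16 without compound 5 replicate 1, and was 0.47 without compound 5 replicate 2, 0.04 without compound 6 replicate 1 and 0.55 without compound 6 replicate 2.

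The drug efflux pump ABCB1 had 218 and 192 CPM against 123 and 157 CPM under compound 6 (log2 difference 0.55 ± 0.14 SE, adjusted p = 0.0341). ALAS1, which starts haem synthesis, and POR, the electron donor of the P450 enzymes, were higher by 1.5-fold and 1.44-fold (adjusted p = 0.011 and 0.0146). These genes thus moved with CYP3A4, while the receptor itself did not pass. NR1I2, the gene of the pregnane X receptor, gave 30.9 and 30.7 CPM against 32.8 and 38.5 CPM (log2 difference -0.21, 95% interval -0.48 to 0.06, adjusted p = 0.285). The carboxylesterase gene CES2 was lower with compound 5 at 92.4 and 89.7 CPM against 117 and 114 CPM (log2 difference -0.34 ± 0.10 SE, adjusted p = 0.0481), a call lost with the replicate block (adjusted p = 0.06). CYP3A5 and CYP3A7 did not pass the test, with log2 differences of -0.18 and -0.05. The list held 1, 1, 1 and 5 called genes without compound 5 replicate 1 or 2 or compound 6 replicate 1 or 2, in this order here and below, and 3 when either DMSO sample was left out.

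The list with the highest share of called members was that of metallothioneins, small cysteine-rich proteins that bind zinc and copper, with their regulators and the zinc transporters. Of 14 listed genes 11 were tested, and 7 were higher and 1 was lower with compound 5. Its median log2 difference was 1.09, and the list medians against DMSO were 1.96 with compound 5 and 0.16 with compound 6. The 250 bases before the RefSeq start site of the called members MT2A (chr16:56608334-56608583), MT1X (chr16:56682220-56682469), both on the plus strand, and SLC30A1 (chr1:211579162-211579411, minus strand) are shown from RefSeq on GRCh38.p14, since metallothionein promoters are known for metal response elements, which MTF1 binds. Capitals mark matches to the core TGCNCNC on either strand.
MT2A: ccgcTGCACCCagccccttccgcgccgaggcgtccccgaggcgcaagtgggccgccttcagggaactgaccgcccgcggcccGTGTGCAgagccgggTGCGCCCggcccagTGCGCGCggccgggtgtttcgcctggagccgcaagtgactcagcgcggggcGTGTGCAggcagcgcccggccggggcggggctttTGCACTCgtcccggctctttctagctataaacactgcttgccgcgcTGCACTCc
MT1X: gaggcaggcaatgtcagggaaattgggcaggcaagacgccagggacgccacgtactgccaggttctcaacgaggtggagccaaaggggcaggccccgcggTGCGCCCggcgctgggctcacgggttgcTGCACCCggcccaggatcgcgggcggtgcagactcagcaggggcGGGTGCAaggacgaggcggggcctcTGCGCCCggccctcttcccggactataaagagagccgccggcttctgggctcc
SLC30A1: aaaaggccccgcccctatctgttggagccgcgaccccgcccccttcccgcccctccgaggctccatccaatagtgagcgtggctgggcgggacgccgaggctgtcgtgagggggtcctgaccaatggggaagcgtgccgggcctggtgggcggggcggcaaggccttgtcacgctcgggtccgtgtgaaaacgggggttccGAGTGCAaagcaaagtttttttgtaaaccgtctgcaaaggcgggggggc
The core occurred 7 times before MT2A, 4 times before MT1X and once before SLC30A1. It was found before 5 of the 8 listed genes with a RefSeq entry (62.5%), and before 49.1% of all 35116 promoters of the same length, so such a short core is common, and a match is not a binding site. The window of SLC39A10 held no match. GENCODE places the first base of MT2A and of MT1X farther upstream than RefSeq does.

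MT1X stood at 31.5 and 39.7 CPM under compound 5, 12.9 and 12.1 CPM under compound 6 and 8.47 and 9.86 CPM in DMSO (log2 difference 1.51 ± 0.18 SE, adjusted p = 0.00183). MT1F was at 32.6 and 36.7 CPM under compound 5, 10.01 and 11.9 CPM under compound 6 and 10.5 and 12.7 CPM in DMSO (log2 difference 1.66 ± 0.20 SE, adjusted p = 0.00199), and MT1G was at 70.5 and 86.4 CPM under compound 5, 23.04 and 32.03 CPM under compound 6 and 15.6 and 21.3 CPM in DMSO (log2 difference 1.5 ± 0.25 SE, adjusted p = 0.00698). With compound 6, MT1F lay at the level of the controls and MT1X and MT1G lay above both of them, and compound 5 was between 2.83-fold and 3.16-fold above compound 6 in all 3 genes. MT2A was also above DMSO in both groups, with 253 and 294 CPM under compound 5, 97.5 and 189.5 CPM under compound 6 and 40.1 and 43.9 CPM in DMSO (log2 difference 0.93 ± 0.24 SE, adjusted p = 0.0386). The zinc exporter gene SLC30A1, also a classical MTF1 target, was called as well, at 165 and 165 CPM against 84.1 and 93.1 CPM (log2 difference 0.90 ± 0.10 SE, adjusted p = 0.00128), and so was MT1E with a log2 difference of 1.09. For MT1M the counts were 18 and 21 with compound 5 and 1 and 1 with compound 6, a ratio of 17.9 with an exact counting interval of 4.64 to 153. The zinc importer gene SLC39A10 went the other way, with 18.3 and 15.9 CPM under compound 5, 37.95 and 33.4 CPM under compound 6 and 32.2 and 33.6 CPM in DMSO (log2 difference -1.06 ± 0.15 SE, adjusted p = 0.0042). MTF1 itself did not pass (log2 difference 0.38, 95% interval 0.08 to 0.68, adjusted p = 0.103).

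Metallothionein transcripts resemble each other, and 19.8% of the 31-base stretches of MT1X, 23.3% of MT1G and 23.8% of MT1M also occur in other genes, against 3.25% of MT1F and 7.25% of MT2A. DESeq2 called 5 of the 8 genes, not MT2A (adjusted p = 0.0681), MT1E or MT1M. 5, 4, 4 and 7 members were called without compound 5 replicate 1 or 2 or compound 6 replicate 1 or 2.

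**Figure D2:**
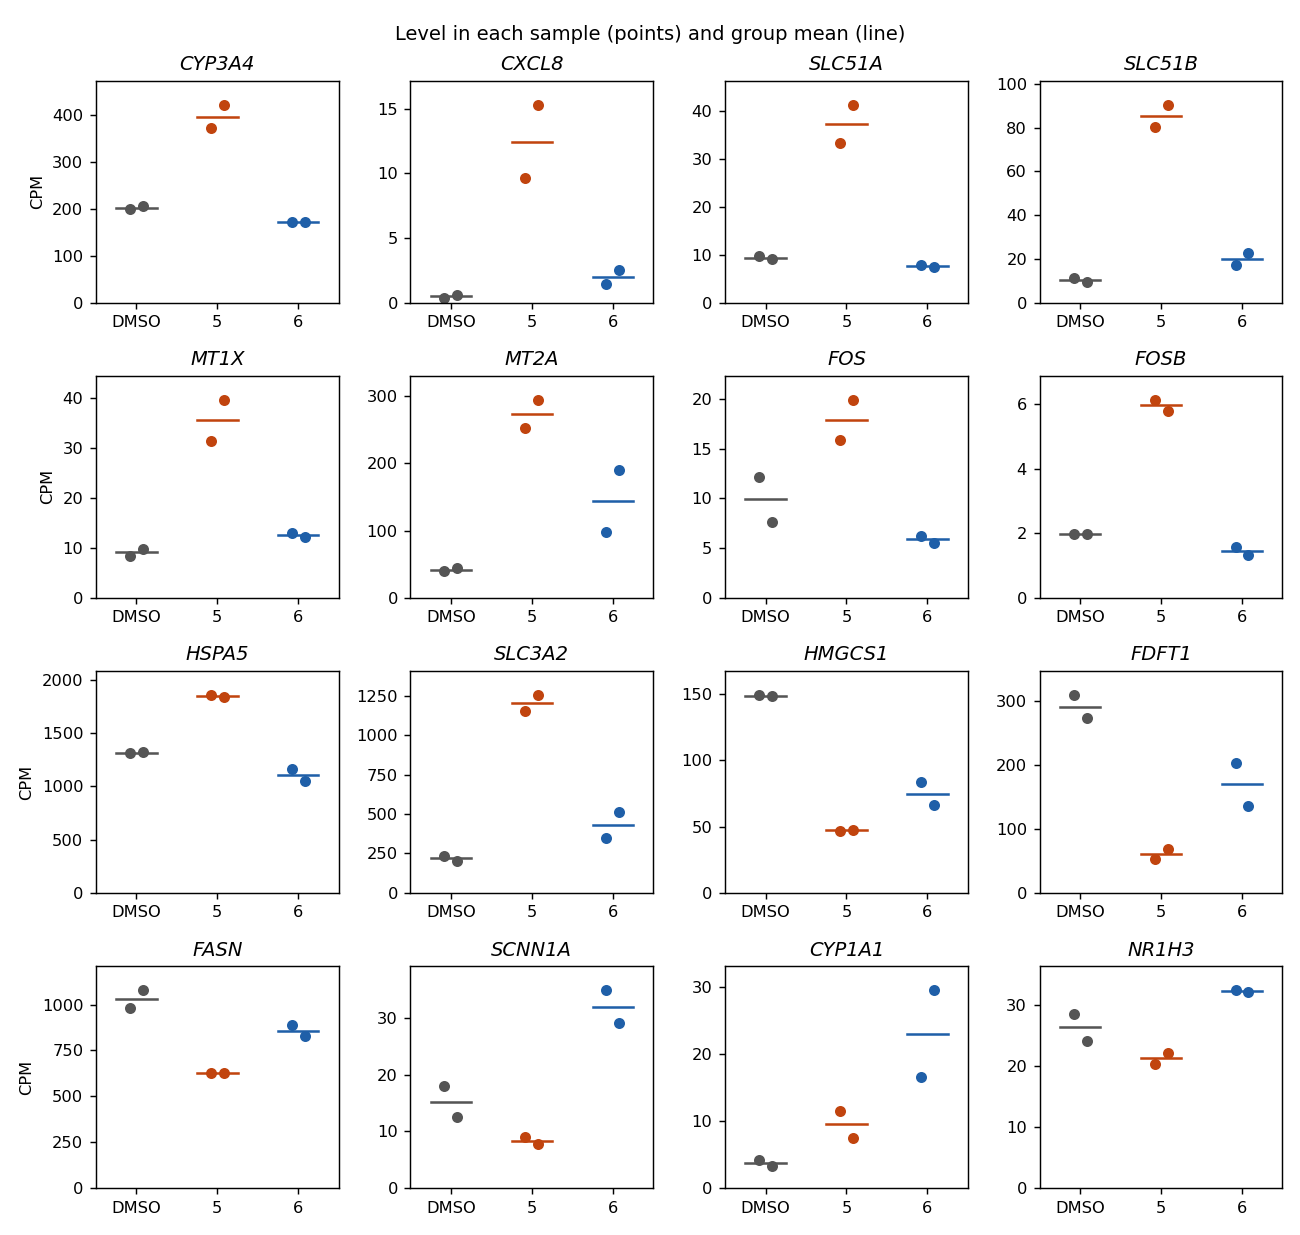
Level of 16 genes in CPM (vertical axis from 0) in each sample of DMSO, compound 5 and compound 6, with the group mean as a line. MT1X and SLC51A are closer to DMSO with compound 6 than with compound 5, where they are highest, whereas HMGCS1 is below DMSO in both groups and lowest with compound 5.

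Immediate early genes, whose transcription starts within minutes of a growth or stress signal, formed the next list. Of 18 tested members 11 were higher with compound 5 and 0 lower (61.1% of those tested), with a median log2 difference of 0.71. FOS was at 15.9 and 19.9 CPM under compound 5, 6.26 and 5.52 CPM under compound 6 and 12.2 and 7.64 CPM in DMSO (log2 difference 1.61 ± 0.23 SE, adjusted p = 0.0042). FOSB was at 6.14 and 5.81 CPM under compound 5, 1.56 and 1.32 CPM under compound 6 and 1.97 and 1.97 CPM in DMSO (log2 difference 2.05 ± 0.31 SE, adjusted p = 0.00446). With compound 6 both FOS genes lay below both controls, and with compound 5 above them. EGR1, a zinc finger factor, lay above DMSO in both groups, with 51.1 and 55.8 CPM under compound 5, 10.7 and 24.6 CPM under compound 6 and 3.05 and 3.12 CPM in DMSO (log2 difference 1.58 ± 0.28 SE, adjusted p = 0.00951). JUN, the partner of FOS in AP-1, had 194 and 218 CPM under compound 5, 81.7 and 115 CPM under compound 6 and 106 and 90.8 CPM in DMSO (log2 difference 1.06 ± 0.15 SE, adjusted p = 0.00415). The small MAF gene MAFK was 2.73-fold higher (adjusted p = 0.00168), FOSL1 1.86-fold (adjusted p = 0.0222) and MYC 1.55-fold (adjusted p = 0.00568).

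The 250 bases before the RefSeq start sites of FOS (chr14:75278578-75278827), FOSB (chr19:45467746-45467995) and EGR1 (chr5:138465229-138465478), all on the plus strand of GRCh38.p14, are printed as called members of this list with the largest differences between the compounds. Capitals mark TGACGT on either strand, a cyclic AMP response core that was searched after the promoters had been seen.
FOS: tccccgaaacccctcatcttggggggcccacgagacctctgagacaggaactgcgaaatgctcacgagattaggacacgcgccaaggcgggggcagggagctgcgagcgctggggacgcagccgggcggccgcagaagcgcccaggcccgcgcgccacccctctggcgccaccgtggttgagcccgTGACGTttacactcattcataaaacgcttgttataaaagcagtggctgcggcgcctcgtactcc
FOSB: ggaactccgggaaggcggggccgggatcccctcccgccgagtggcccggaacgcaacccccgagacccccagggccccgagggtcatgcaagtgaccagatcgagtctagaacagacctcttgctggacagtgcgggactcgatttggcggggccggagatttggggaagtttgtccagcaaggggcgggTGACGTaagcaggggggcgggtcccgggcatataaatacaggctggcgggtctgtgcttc
EGR1: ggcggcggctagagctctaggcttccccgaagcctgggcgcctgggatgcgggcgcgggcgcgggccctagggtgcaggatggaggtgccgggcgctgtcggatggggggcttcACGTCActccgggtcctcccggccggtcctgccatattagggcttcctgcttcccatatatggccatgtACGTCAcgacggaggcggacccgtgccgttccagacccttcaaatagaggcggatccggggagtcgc
This core stood before 7 of the 17 listed genes with an entry (41.2%) and before 7.1% of all promoters of this length. The AP-1 core TGANTCA stood before 0 of the 17, and before 6.57% of all promoters, and the window of JUN held neither core. These shares are descriptions of these windows. 5, 5, 6 and 12 members of the list were called without compound 5 replicate 1 or 2 or compound 6 replicate 1 or 2.

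Genes of MAP kinase feedback and growth factor ligands were higher with compound 5 in 9 of the 25 tested and lower in 0, with a median of 0.46 (0.26 without compound 6 replicate 1 and 0.77 without compound 6 replicate 2). DUSP1, a phosphatase that shuts off MAP kinases, had 103 and 118 CPM under compound 5, 36.5 and 46.6 CPM under compound 6 and 49.3 and 43.8 CPM in DMSO (log2 difference 1.41 ± 0.13 SE, adjusted p = 0.000582). The receptor tyrosine kinase gene EPHA2 had 292 and 332 CPM under compound 5, 87.2 and 159 CPM under compound 6 and 59.5 and 60.5 CPM in DMSO (log2 difference 1.34 ± 0.21 SE, adjusted p = 0.00566). DUSP1 was near DMSO with compound 6, while EPHA2 was above DMSO with both compounds. The ERK phosphatase gene DUSP5 and the EGF receptor ligand gene AREG were higher by 2.93-fold and 2.63-fold (adjusted p = 0.0219 and 0.0371), and in both the compound 6 replicates lay far apart, at 5.32 and 17.1 CPM for DUSP5 and 3.13 and 10.3 CPM for AREG. DESeq2 called 7 members and not DUSP5 (adjusted p = 0.0676). With a robust prior neither DUSP5 nor AREG was called (adjusted p = 0.0786 and 0.0657). The feedback genes DUSP6 and SPRY4 did not pass. DUSP6 was at 241 and 231 CPM against 204 and 247 CPM (log2 difference 0.07, 95% interval -0.18 to 0.31, adjusted p = 0.752), and for SPRY4 the log2 difference was 0.44 (95% interval 0.06 to 0.82). Leaving out compound 5 replicate 1 or 2, or compound 6 replicate 1 or 2, gave 4, 3, 4 and 11 called members.

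Chemokine and cytokine genes followed with 5 of 18 tested members higher and 0 lower. CCL20, which attracts lymphocytes through CCR6, stood at 752 and 701 CPM under compound 5, 195 and 258 CPM under compound 6 and 143 and 119 CPM in DMSO (log2 difference 1.68 ± 0.14 SE, adjusted p = 0.000339). CLCF1 had 4.77 and 8.24 CPM against 0.938 and 2.72 CPM and CCL15 29.4 and 24.2 CPM against 13.6 and 15.7 CPM (adjusted p = 0.0356 and 0.018). CCL15 shares 35.1% of its 31-base stretches with other genes. For IL11 the groups were 1.28 and 1.49 CPM and 0 and 0.824 CPM, and the interval of the log2 difference, -0.20 to 3.43, included 0. The NF-kB list did not share this direction, with 1 member higher (ICAM1, 1.43-fold) and 1 lower (BIRC3, adjusted p = 0.0484, and 0.055 with the replicate block and 0.0814 in DESeq2) of 17, a median of 0.02 that lay between -0.07 without compound 6 replicate 1 and 0.16 without compound 6 replicate 2, and NFKBIA and TNFAIP3 at log2 differences of 0.02 and -0.32. ICAM1 was not called when compound 5 replicate 1, compound 5 replicate 2 or compound 6 replicate 1 was left out, and BIRC3 not when any of the 4 compound samples or either DMSO sample was left out. Of the chemokine list, 2, 2, 2 and 8 members were called without compound 5 replicate 1 or 2 or compound 6 replicate 1 or 2.

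Chaperones and degradation factors of the ER were higher with compound 5 in 19 of 36 tested genes and lower in 0, with a median log2 difference of 0.41. HSPA5, the master chaperone BiP, was at 1860 and 1839 CPM under compound 5, 1166 and 1051 CPM under compound 6 and 1311 and 1322 CPM in DMSO (log2 difference 0.74 ± 0.10 SE, adjusted p = 0.00391). HERPUD1, a scaffold of ER-associated degradation, was at 236 and 248 CPM under compound 5, 79.1 and 96.2 CPM under compound 6 and 76.5 and 84.5 CPM in DMSO (log2 difference 1.46 ± 0.12 SE, adjusted p = 0.000266). DNAJB9, a co-chaperone of BiP, was at 80.02 and 73.9 CPM under compound 5, 24.2 and 31.6 CPM under compound 6 and 20.2 and 22.6 CPM in DMSO (log2 difference 1.46 ± 0.14 SE, adjusted p = 0.000565). HSPA5 was below both controls with compound 6, and the other two lay near or slightly above them. SELENOS, which takes part in the export of misfolded proteins, and ERN1, the gene of the stress sensor IRE1, were 2.12-fold and 2.01-fold higher (adjusted p = 0.00198 and 0.0121). XBP1, whose transcript IRE1 splices, did not pass (log2 difference -0.31, 95% interval -0.65 to 0.02, adjusted p = 0.213), and a gene-level count does not tell its spliced form.

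The members that passed reach from chaperones (HSPA5, HYOU1, HSP90B1) over the lectin CANX and the disulfide isomerases PDIA3 and PDIA4 to the degradation genes SYVN1, EDEM1, DERL1 and DERL2, with log2 differences between 0.38 and 1.46 over all 19. The list held 12 called genes with upper-quartile scaling and 20 with RLE scaling. The list held 6, 8, 8 and 10 without compound 5 replicate 1 or 2 or compound 6 replicate 1 or 2, and without DMSO replicate 1 it held 12.

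The coats that carry proteins between ER and Golgi went the same way. Of 50 tested COPI and COPII genes 24 were higher and 1 lower with compound 5, and 44 had a positive log2 difference, with a median of 0.37. SEC24D, a cargo adaptor of COPII, had 204 and 208 CPM under compound 5, 119 and 117 CPM under compound 6 and 92.1 and 100.4 CPM in DMSO (log2 difference 0.81 ± 0.12 SE, adjusted p = 0.00433). ARFGAP3, SEC16A and ARF4, which act in coat turnover, at ER exit sites and in COPI recruitment, were 1.59-fold, 1.56-fold and 1.53-fold higher (adjusted p between 0.00853 and 0.0299). COPG2, an alternative coatomer subunit, was the called member that was lower, at 19.3 and 18.2 CPM against 29.2 and 26.4 CPM (log2 difference -0.57 ± 0.13 SE, adjusted p = 0.0205). The KDEL receptors, which return chaperones to the ER, did not pass, with log2 differences of 0.29 for KDELR2 and 0.09 for KDELR3. This list rested strongly on single samples, with 1, 2, 3 and 12 calls without compound 5 replicate 1 or 2 or compound 6 replicate 1 or 2, and 16 without DMSO replicate 1. Upper-quartile scaling gave 16 calls.

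Of 31 tested targets of the integrated stress response 8 were higher with compound 5 and 0 lower. The list medians against DMSO, which were not tested, were 1.00 with compound 5 and 0.60 with compound 6. PPP1R15A, the feedback subunit GADD34 of the eIF2α phosphatase, had 168 and 199 CPM under compound 5, 34.7 and 74.3 CPM under compound 6 and 29.6 and 25.9 CPM in DMSO (log2 difference 1.74 ± 0.25 SE, adjusted p = 0.00446). The gene of the pro-apoptotic factor CHOP, DDIT3, had 56.7 and 56.9 CPM under compound 5, 13.9 and 24.6 CPM under compound 6 and 10.3 and 6.25 CPM in DMSO (log2 difference 1.55 ± 0.24 SE, adjusted p = 0.00509). The stress hormone gene GDF15 had 3368 and 3763 CPM under compound 5, 841 and 1705 CPM under compound 6 and 393 and 294 CPM in DMSO (log2 difference 1.49 ± 0.26 SE, adjusted p = 0.0092). In each of the 3 genes compound 6 replicate 2 lay well above replicate 1, and both lay below compound 5. The pseudokinase gene TRIB3 and the factor ATF3 were 1.78-fold and 1.98-fold higher (adjusted p = 0.0227 and 0.0339).

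ATF4 itself did not pass (log2 difference 0.32, 95% interval 0.05 to 0.58, adjusted p = 0.123), and neither did the asparagine synthetase gene ASNS (log2 difference 0.21, 95% interval -0.07 to 0.50, adjusted p = 0.306), of which 42.5% of the 31-base stretches occur in other genes. Leaving out compound 5 replicate 1 or 2, or compound 6 replicate 1 or 2, gave 3, 3, 4 and 11 calls in this list. Amino acid transporters were higher in 6 of 18 tested genes. SLC3A2, the heavy chain of several exchangers, reached 1152 and 1257 CPM under compound 5, 349.8 and 514 CPM under compound 6 and 237 and 201 CPM in DMSO (log2 difference 1.48 ± 0.17 SE, adjusted p = 0.00159), and SLC38A2, a glutamine and alanine carrier, 2128 and 2003 CPM under compound 5, 1118 and 1232 CPM under compound 6 and 859 and 878 CPM in DMSO (log2 difference 0.81 ± 0.10 SE, adjusted p = 0.00201). SLC7A6 was 1.58-fold higher, and SLC7A1 1.47-fold, the latter with an adjusted p of 0.0375 and of 0.0535 with the replicate block. 2, 3, 2 and 7 transporters were called without compound 5 replicate 1 or 2 or compound 6 replicate 1 or 2. Among cytosolic tRNA synthetases only GARS1 (1.37-fold) and TARS1 (1.36-fold) of 20 passed, a share of 10% beside 9.91% over all genes. Neither was called without compound 5 replicate 1, compound 5 replicate 2 or compound 6 replicate 1, and without DMSO replicate 1 only GARS1 was.

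Autophagy genes were higher in 8 and lower in 1 of 40 tested. SQSTM1, the receptor p62, was at 1495 and 1467 CPM under compound 5, 623 and 969 CPM under compound 6 and 337 and 310.3 CPM in DMSO (log2 difference 0.90 ± 0.17 SE, adjusted p = 0.011). ULK1, the kinase that starts autophagy, ATG2A and GABARAPL1 were 1.77-fold, 1.7-fold and 1.59-fold higher (adjusted p between 0.00533 and 0.0238), and MAP1LC3B 1.38-fold (adjusted p = 0.0318, and 0.055 with upper-quartile scaling). ATG10, an E2-like enzyme, was 2.51-fold lower, at 1.93 and 1.81 CPM against 4.69 and 4.69 CPM. 0, 1, 1 and 9 members were called without compound 5 replicate 1 or 2 or compound 6 replicate 1 or 2.

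Lysosomal genes had the opposite balance among called members alone, 1 higher and 7 lower of 50 tested. Called or not, 28 of the 50 had a positive and 22 a negative log2 difference, and the median was 0.04 (between -0.01 and 0.08 when 1 compound 5 sample was left out). Among the hydrolases, NAGLU, GAA and CTSH were lower by 1.68-fold, 1.44-fold and 1.43-fold. The factor TFE3 was the member that was higher (1.43-fold, adjusted p = 0.0416, and 0.0621 with upper-quartile scaling), whereas TFEB (log2 difference 0.18) and the cathepsin gene CTSD (0.12, 38.5% of 31-base stretches shared with other genes) did not pass. 0, 2, 0 and 7 lysosomal genes were called without compound 5 replicate 1 or 2 or compound 6 replicate 1 or 2, and 5 and 3 without DMSO replicate 1 or 2.

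NRF2 and its targets were higher with compound 5 in 12 and lower in 2 of 30 tested genes, with a median of 0.23. The gene of NRF2, NFE2L2, had 364 and 420.3 CPM under compound 5, 276 and 299 CPM under compound 6 and 236 and 237 CPM in DMSO (log2 difference 0.45 ± 0.10 SE, adjusted p = 0.024). OSGIN1, an NRF2 target, had 165 and 181 CPM under compound 5, 62.6 and 64.6 CPM under compound 6 and 45.9 and 39.2 CPM in DMSO (log2 difference 1.44 ± 0.11 SE, adjusted p = 0.000196), and GCLC, the catalytic subunit that limits glutathione synthesis, 419 and 434 CPM under compound 5, 210.1 and 267 CPM under compound 6 and 159 and 151 CPM in DMSO (log2 difference 0.84 ± 0.12 SE, adjusted p = 0.00446). Both lay above DMSO with either compound. TXNRD1 (thioredoxin reductase), MAFG and GCLM were 1.65-fold, 1.76-fold and 1.51-fold higher. The classical target NQO1 did not differ beyond its error, 1670 and 1714 CPM against 1738 and 1630 CPM (log2 difference 0.01, 95% interval -0.23 to 0.24, adjusted p = 0.975), and haem oxygenase HMOX1 did not pass (log2 difference -0.31, 95% interval -0.53 to -0.08, adjusted p = 0.0836). The conjugate exporter gene ABCC3 was lower than with compound 6, at 83.9 and 86.5 CPM under compound 5, 139.7 and 184 CPM under compound 6 and 70.3 and 67.1 CPM in DMSO (log2 difference -0.93 ± 0.13 SE, adjusted p = 0.00386), and PIR was 1.59-fold lower. 2, 4, 3 and 8 members were called without compound 5 replicate 1 or 2 or compound 6 replicate 1 or 2.

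**Figure D3:**
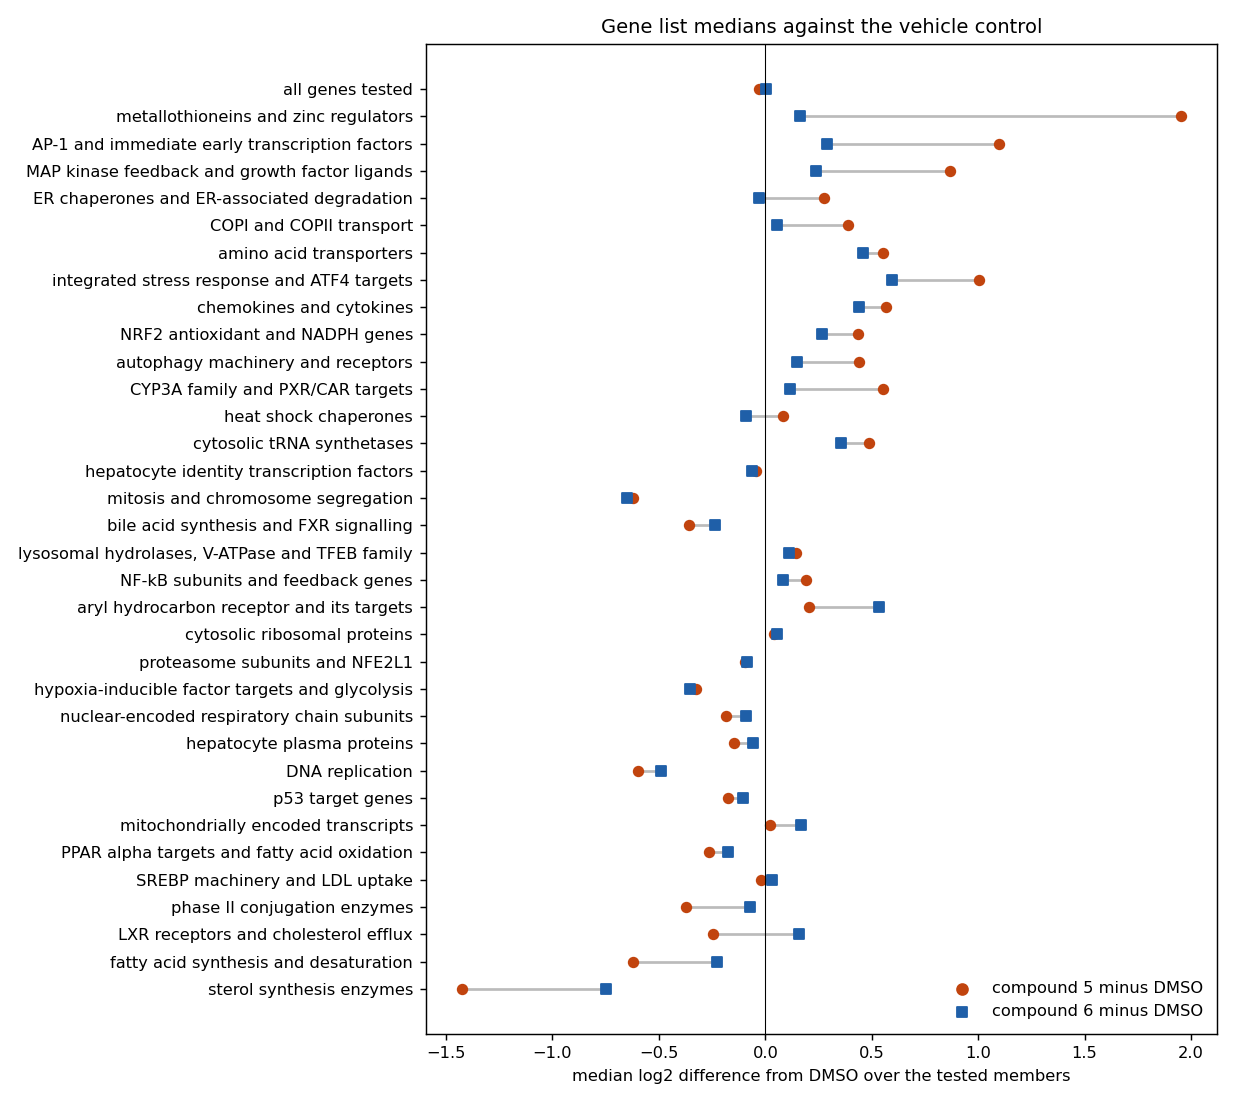
Median log2 difference from DMSO over the tested members of each list, for compound 5 (circles) and compound 6 (squares), which share the same 2 DMSO samples. Sterol synthesis enzymes lie at -1.43 and -0.75, metallothioneins at 1.96 and 0.16, and mitosis genes at -0.62 and -0.65.

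Enzymes of sterol synthesis were the largest group lower with compound 5. All 20 tested enzymes had a negative log2 difference and 12 passed the test, with a median of -0.67. Squalene synthase, FDFT1, was at 53.3 and 68.7 CPM under compound 5, 203 and 137 CPM under compound 6 and 310.1 and 274 CPM in DMSO (log2 difference -1.47 ± 0.19 SE, adjusted p = 0.00296). MSMO1, a sterol methyl oxidase, was at 20.4 and 25.5 CPM under compound 5, 69.3 and 49.4 CPM under compound 6 and 122 and 99.04 CPM in DMSO (log2 difference -1.36 ± 0.20 SE, adjusted p = 0.00452). TM7SF2, a sterol reductase, and IDI1, the isomerase of isopentenyl diphosphate, were 2.45-fold and 2.3-fold lower (adjusted p = 0.0042 and 0.00512). These enzymes lay below DMSO with both compounds and farther with compound 5. HMGCS1 had 46.7 and 47.7 CPM under compound 5, 83.2 and 66.2 CPM under compound 6 and 149 and 148 CPM in DMSO (log2 difference -0.66 ± 0.13 SE, adjusted p = 0.012). HMGCS1, which makes HMG-CoA, was thus 1.58-fold lower than with compound 6. CYP51A1, EBP, SQLE, MVD, MVK, PMVK and SC5D had log2 differences between -0.69 and -0.06 that did not pass. 1, 6, 4 and 14 enzymes were called without compound 5 replicate 1 or 2 or compound 6 replicate 1 or 2.

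The list of SREBP machinery and lipoprotein uptake had fewer calls. SREBF2, the gene of the SREBP that drives these enzymes, was lower than with compound 6, at 176 and 184 CPM under compound 5, 253 and 258 CPM under compound 6 and 255 and 246 CPM in DMSO (log2 difference -0.51 ± 0.09 SE, adjusted p = 0.0102). STARD4, a sterol carrier, was at 14.2 and 17.3 CPM under compound 5, 33.4 and 26.8 CPM under compound 6 and 35.7 and 34.5 CPM in DMSO (log2 difference -0.93 ± 0.17 SE, adjusted p = 0.00951). MYLIP, a ubiquitin ligase induced by liver X receptors, was at 3.85 and 2.59 CPM under compound 5, 8.86 and 9.22 CPM under compound 6 and 5.71 and 9.04 CPM in DMSO (log2 difference -1.50 ± 0.27 SE, adjusted p = 0.0092). In these 3 genes the compound 5 samples lay below both compound 6 samples. Of this list 4 of 15 tested genes were lower and 0 higher, and without compound 5 replicate 1 or 2, or compound 6 replicate 1 or 2, 1, 2, 0 and 6 were called. Among the liver X receptor genes 3 of 12 were lower, namely NR1H3, the gene of LXRα (20.4 and 22.1 CPM under compound 5, 32.4 and 32.1 CPM under compound 6 and 28.5 and 24.2 CPM in DMSO), MYLIP and the HDL receptor gene SCARB1 (1.5-fold). ABCA1, the cholesterol exporter, did not pass (log2 difference -0.66, 95% interval -1.11 to -0.22, adjusted p = 0.0633), and it was called with upper-quartile scaling (adjusted p = 0.0362). 1, 0, 0 and 2 of them were called without compound 5 replicate 1 or 2 or compound 6 replicate 1 or 2.

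Fatty acid synthesis and desaturation followed the sterol enzymes, with 7 of 18 tested genes lower, 0 higher and a median of -0.52. SCD, the stearoyl-CoA desaturase, had 642 and 599 CPM under compound 5, 1515 and 1032 CPM under compound 6 and 1672 and 1650 CPM in DMSO (log2 difference -1.04 ± 0.16 SE, adjusted p = 0.00509), and FASN, the fatty acid synthase, 624 and 628 CPM under compound 5, 887 and 829 CPM under compound 6 and 983 and 1079 CPM in DMSO (log2 difference -0.45 ± 0.10 SE, adjusted p = 0.0189). PNPLA3, ACSS2 and the citrate carrier gene SLC25A1 were 2.32-fold, 1.89-fold and 1.76-fold lower. 0, 3, 2 and 6 were called without compound 5 replicate 1 or 2 or compound 6 replicate 1 or 2. On the side of storage and oxidation, the lipid droplet coat gene PLIN2 was higher with compound 5 and below the controls with compound 6, at 1123 and 1097 CPM under compound 5, 583 and 603 CPM under compound 6 and 733 and 666 CPM in DMSO (log2 difference 0.90 ± 0.10 SE, adjusted p = 0.00114). PPARGC1A was 1.47-fold higher, whereas the oxidation enzymes EHHADH, ACADS, CPT2 and ACADM were 1.93-fold, 1.44-fold, 1.4-fold and 1.39-fold lower. ACADS had an adjusted p of 0.0498 and of 0.0584 with the replicate block. PPARA and CPT1A did not pass, with log2 differences of 0.24 and 0.11. In all, 2 of 26 tested genes of this list were higher and 4 lower. It held 1, 1, 1 and 4 calls without compound 5 replicate 1 or 2 or compound 6 replicate 1 or 2, and 2 when either DMSO sample was left out.

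The aryl hydrocarbon receptor list showed a difference at 1 gene of 7 tested. CYP1A1, its best known target, was higher with compound 6, at 11.5 and 7.46 CPM under compound 5, 16.5 and 29.5 CPM under compound 6 and 4.14 and 3.21 CPM in DMSO (log2 difference -1.30 ± 0.27 SE, adjusted p = 0.016), so that both compounds lay above DMSO and compound 6 2.47-fold above compound 5. It was not called without compound 5 replicate 1, compound 5 replicate 2 or compound 6 replicate 2. AHR (log2 difference 0.28, 31.6% of 31-base stretches shared) and TIPARP (0.21) did not pass. Of the conjugating enzymes 6 of 24 tested were lower with compound 5 and 1 higher, with a median of -0.35. The glucuronosyltransferase gene UGT2B4 was the one that was higher, at 22.2 and 24.5 CPM under compound 5, 9.49 and 10.2 CPM under compound 6 and 12.5 and 11.4 CPM in DMSO (log2 difference 1.24 ± 0.15 SE, adjusted p = 0.00183). The glutathione transferase genes GSTA4 and GSTZ1 were 2.12-fold and 2.02-fold lower, and the sulfotransferase genes SULT1A2, which shares 34.5% of its 31-base stretches with other genes, and SULT1A1 were 1.67-fold and 1.63-fold lower. 1, 3, 1 and 5 of these enzymes were called without compound 5 replicate 1 or 2 or compound 6 replicate 1 or 2.

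In the bile acid and FXR list, SLC51A, SLC51B and NR0B2 were higher with compound 5 and KLB and HSD3B7 lower, of 16 tested. NR0B2, the corepressor SHP that FXR induces, had 171 and 194 CPM under compound 5, 108 and 135 CPM under compound 6 and 76.5 and 70.4 CPM in DMSO (log2 difference 0.59 ± 0.13 SE, adjusted p = 0.0196). KLB, the co-receptor of FGF19, had 29.8 and 28.3 CPM under compound 5, 52.97 and 37.2 CPM under compound 6 and 80.1 and 81.4 CPM in DMSO (log2 difference -0.63 ± 0.16 SE, adjusted p = 0.0338), and HSD3B7, an enzyme of bile acid synthesis, was 1.5-fold lower. The FXR gene NR1H4 did not pass (log2 difference 0.15, 95% interval -0.20 to 0.50, adjusted p = 0.579), and FGF19 was too low to compare, at 0.367 and 2.36 CPM against 0.626 and 0.247 CPM. 2, 2, 2 and 5 members were called without compound 5 replicate 1 or 2 or compound 6 replicate 1 or 2, which included SLC51A and SLC51B each time, and 3 were called when DMSO replicate 2 was left out.

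Plasma protein genes of the hepatocyte differed one by one and not as a group, with 6 higher and 4 lower of 45 and a median of -0.10 (-0.04 without compound 6 replicate 1). ITIH3, a hyaluronan-binding inhibitor chain, was at 271 and 292 CPM under compound 5, 127 and 123 CPM under compound 6 and 94.7 and 83.4 CPM in DMSO (log2 difference 1.17 ± 0.11 SE, adjusted p = 0.000426), and the fibrinogen genes FGA and FGB were 1.69-fold and 1.53-fold higher with compound 5. A1BG is a plasma glycoprotein of which 49.2% of the 31-base stretches occur in other genes, and in both fibrinogen genes the compound 6 samples lay below the controls. A1BG was 2.01-fold higher (adjusted p = 0.0415, and 0.0579 with the replicate block). Coagulation factor F7, the apolipoprotein gene APOM, SERPINF2 and AHSG were 2.14-fold, 1.95-fold, 1.59-fold and 1.43-fold lower. Albumin (ALB) did not pass, with 13050 and 13610 CPM under compound 5, 16020 and 12560 CPM under compound 6 and 18490 and 16380 CPM in DMSO (log2 difference -0.10, 95% interval -0.40 to 0.20, adjusted p = 0.683), and neither did APOA1 (-0.03). 3, 3, 5 and 5 were called without compound 5 replicate 1 or 2 or compound 6 replicate 1 or 2. Of 19 hepatocyte transcription factors only NR0B2 passed, while HNF4A (log2 difference -0.18, 95% interval -0.40 to 0.04, adjusted p = 0.273) and CEBPA (log2 difference -0.21, 95% interval -0.55 to 0.13, adjusted p = 0.408) did not. NR0B2 was not called without compound 5 replicate 1, compound 5 replicate 2 or compound 6 replicate 1, and 2 factors were called when either compound 4 sample was left out.

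Few proliferation genes, in contrast, passed the test between the compounds. Of 61 tested DNA replication genes 1 passed, the primase gene PRIM1, lower with compound 5 at 12.9 and 11.9 CPM against 23.04 and 18.2 CPM (adjusted p = 0.0174), and the interval stayed within 1.5-fold for 37. A negative log2 difference was found for 44 of the 61, beside 7037 of 13404 over all genes. The list median was -0.11, and between -0.30 and 0.08 when 1 sample was left out. MCM2, a subunit of the replicative helicase, stood at 136 and 171 CPM under compound 5, 181 and 152 CPM under compound 6 and 248 and 256 CPM in DMSO (log2 difference -0.11, 95% interval -0.40 to 0.17, adjusted p = 0.622). PCNA, the sliding clamp, stood at 191 and 196 CPM under compound 5, 317 and 199.8 CPM under compound 6 and 429.5 and 395 CPM in DMSO (log2 difference -0.42, 95% interval -0.80 to -0.03, adjusted p = 0.156). Both genes lay below DMSO with both compounds. In PCNA compound 6 replicate 2 was close to compound 5 and replicate 1 was not, and without compound 6 replicate 2 the list held 8 calls, all lower with compound 5. PRIM1 was not called without compound 5 replicate 1, compound 5 replicate 2 or compound 6 replicate 1, and 2 genes were called when either compound 4 sample was left out.

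Of 76 mitosis genes 1 passed, ECT2, a regulator of cytokinesis (1.34-fold higher, adjusted p = 0.0471, and 0.0854 with upper-quartile scaling). The interval of the difference stayed within 1.5-fold for 55 of them. TOP2A stood at 293 and 316 CPM under compound 5, 335 and 245 CPM under compound 6 and 469 and 536 CPM in DMSO (log2 difference 0.07, 95% interval -0.24 to 0.38, adjusted p = 0.788), CDK1 at a log2 difference of -0.19, CCNB1 at -0.05 and MKI67 at 0.21 with a 95% interval of -0.40 to 0.83. The medians of this list against DMSO were -0.62 with compound 5 and -0.65 with compound 6. Leaving out any sample of DMSO, compound 5 or compound 6 ended the call of ECT2, and leaving out either compound 4 sample gave 3 calls.

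Among p53 targets the death receptor genes TNFRSF10A and TNFRSF10B and the nuclease gene AEN were higher (1.54-fold, 1.43-fold and 1.34-fold) and FDXR was lower (1.57-fold), of 28 tested. CDKN1A (log2 difference -0.30, 95% interval -0.53 to -0.06, adjusted p = 0.104) and MDM2 (log2 difference 0.06, 95% interval -0.16 to 0.28, adjusted p = 0.736) did not pass. Of the p53 list, 0, 0, 0 and 5 members were called without compound 5 replicate 1 or 2 or compound 6 replicate 1 or 2, 2 and 3 without DMSO replicate 1 or 2, and 7 and 8 without compound 4 replicate 1 or 2. The glycolysis and hypoxia list had 2 lower of 33, ALDOC (2.08-fold) and PFKFB4 (1.51-fold), while the glucose transporter gene SLC2A1 was at 1940 and 1908 CPM under compound 5, 1801 and 2171 CPM under compound 6 and 1293 and 1205 CPM in DMSO (log2 difference -0.05, 95% interval -0.29 to 0.20, adjusted p = 0.835). In this list 0, 1, 0 and 5 genes were called without compound 5 replicate 1 or 2 or compound 6 replicate 1 or 2, and 4 and 5 without compound 4 replicate 1 or 2. VEGFA did not pass (log2 difference 0.51, 95% interval 0.16 to 0.86, adjusted p = 0.0705), and it was called with the replicate block (adjusted p = 0.0301).

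Ribosomal and proteasomal genes differed little. All 58 tested ribosomal protein genes had 95% intervals within 1.5-fold, 0 passed in edgeR and in DESeq2 (0 had an unadjusted p under 0.05 in edgeR), and RPLP0 was at 2212 and 2619 CPM against 2401 and 2429 CPM. Of 34 proteasome genes 33 had such intervals, and the 1 that passed was NFE2L1, the gene of their transcription factor, at 243 and 217 CPM under compound 5, 329 and 372 CPM under compound 6 and 335 and 340.3 CPM in DMSO (log2 difference -0.61 ± 0.11 SE, adjusted p = 0.0103). Heat shock chaperones had 1 call of 23, the gene of the factor HSF1 itself (1.35-fold higher with compound 5), and HSPA8 was at a log2 difference of 0.11. The respiratory chain subunits of the nucleus had 1 call of 45, NDUFB5 (1.42-fold lower, adjusted p = 0.0484, and 0.0595 with the replicate block). Of the 13 protein-coding transcripts of the mitochondrial genome MT-CYB passed, at 2897 and 2335 CPM under compound 5, 1510 and 1547 CPM under compound 6 and 1458 and 1537 CPM in DMSO (log2 difference 0.78 ± 0.12 SE, adjusted p = 0.00509), whereas the other 12 had log2 differences between -0.36 and 0.12. The mitochondrial ribosomal RNA MT-RNR1, which is outside this list and was chosen after its values were seen, was also higher, at 4428 and 4152 CPM under compound 5, 2520 and 2547 CPM under compound 6 and 2057 and 1939 CPM in DMSO (log2 difference 0.76 ± 0.10 SE, adjusted p = 0.00247), whereas MT-RNR2 did not pass (log2 difference 0.53, 95% interval 0.15 to 0.91, adjusted p = 0.0783). DESeq2 did not call NDUFB5 (adjusted p = 0.0592). NFE2L1, HSF1, NDUFB5 and MT-CYB were each not called without compound 5 replicate 1, all but MT-CYB also without compound 5 replicate 2, all but NFE2L1 also without compound 6 replicate 1, and NFE2L1 and HSF1 also without compound 6 replicate 2. HSF1 and NDUFB5 were not called without DMSO replicate 1, and NDUFB5 not without DMSO replicate 2.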

How the data were processed

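RNA of CYP3A4-overexpressing HepG2 cells was sequenced from strand-specific libraries. Per the submitters' processing notes, the authors checked reads with FastQC 0.12.0, quantified them with Salmon 1.5.0 on GRCh38 transcripts and used DESeq2 1.38.3. The deposited values are estimated counts for each gene, as whole numbers without any scaling. Estimated counts split reads between similar transcripts, so the share of 31-base stretches of a gene's GENCODE transcripts that other genes also hold was computed for genes that the naming rule selects. Of these genes, it is given for those in the report where it is over 30%, and for metallothioneins. It was not computed for genes named after their values were seen, such as ITGB1P1, MT1E and MT-RNR1. The table has 60230 genes, of which 60089 had a symbol.

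The analysis used edgeR 4.0.16 in R 4.3.3 (TMM scaling with factors between 0.958 and 1.04, filterByExpr, quasi-likelihood F-test on all 8 samples in 4 groups, contrast of compound 5 minus compound 6), and adjusted p-values are from this fit unless another tool is named. The threshold for a call was an adjusted p of 0.05 (Benjamini-Hochberg). Standard errors and 95% intervals are Wald estimates of the same fit. The scripts were tested on simulated data. CPM values of single genes are counts divided by the TMM-scaled library total, and marker sums and the floor of 3 counts use the library total itself. Alternatives were RLE, upper-quartile and library-size scaling, DESeq2 1.42.0, limma 3.58.1 (voom), a robust prior, other filters, a replicate block, subsets of groups, a cutoff of 0.01, and leaving out each sample.

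The members, gene lists and tests were chosen with earlier results of these data known. Named are CYP3A4, the 10 largest differences in each direction among called genes of at least 1 CPM with groups that do not overlap, a gene symbol and a protein-coding or long noncoding type (pseudogenes and unnamed genes were left out), the key members of each list, and up to 4 called members of a list in each direction; the promoters are of up to 4 called members with an entry in the 2 lists with the highest share of calls. Other list members (among them SYVN1, SLC30A1, MT1E and SQLE) were named after their values were seen, and a few list members are not reported here. Promoter sequences are from RefSeq on GRCh38.p14, and gene coordinates from GENCODE on GRCh38. Replicates are numbered by the day 1 and day 2 of the labels. Same-numbered samples of compounds 5 and 6 did not deviate together (correlation of deviations -0.0377 over 13404 genes, and -0.0826 to 0.16 over all pairs of groups), and the block was used as an alternative. Concentrations, viability, cell cycle and docking data were not analysed here.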

Additional observations from a re-analysis of the deposited data

Results flagged for a closer look

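In the named and called genes given here, both compound 5 samples lay on one side of both DMSO samples and both compound 6 samples on the other. Their differences from the same controls, which were not tested, thus had opposite signs. The difference itself was tested by the direct comparison of the compounds in edgeR, and the values against DMSO share the 2 control samples. In the first set of genes compound 5 lay above and compound 6 below the controls. Their log2 differences between the compounds were 1.22 for CYP3A4 (0.97 and -0.25 against DMSO with compounds 5 and 6), 2.29 for SLC51A (1.99 and -0.30), 2.05 for FOSB (1.59 and -0.46), 1.61 for FOS (0.86 and -0.75), 0.74 for HSPA5 (0.49 and -0.25), 0.66 for SLC7A6 (0.50 and -0.17) and 0.90 for PLIN2 (0.67 and -0.24). The others were 0.58 for ALAS1, 1.24 for UGT2B4, 0.42 for AEN, 0.61 for FGB, 0.76 for FGA, 2.54 for COL2A1 and 5.71 for CDRT4, the last a fitted value that rests on 1 count with compound 6 and is no bound.

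In the other set compound 5 lay below and compound 6 above the controls. The sizes of these sets follow the choice of named genes and say nothing of the balance over all called genes. The log2 differences were -1.94 for SCNN1A (-0.86 and 1.08 against DMSO), -0.60 for NR1H3 (-0.30 and 0.30), -0.52 for the lysosomal genes GAA and CTSH (-0.28 and 0.24, and -0.26 and 0.26), -1.02 for GSTZ1 (-0.81 and 0.21) and -0.74 for SULT1A2 (-0.39 and 0.36). The noncoding genes MOCS2-DT, LENG8-AS1 and SLC9A3-AS1 had -2.13, -1.86 and -1.84. Several of the changes against DMSO were smaller than 1.5-fold, and they were not tested here. Groups of 2 samples are too small for a test of single outlying samples.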

How the results depend on the processing

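The number of called genes, 1329, stayed within 1.5 times under RLE scaling (1347), upper-quartile scaling (1465), library size alone (1469), DESeq2 (1208), limma-voom (1280), a robust prior (1458), at least 10 counts in every sample (1435), only compounds 5 and 6 (1664) and DMSO with compounds 5 and 6 (1908). It was 2117 without a filter on low counts, which also tests more genes (22717), and 282 at an adjusted p under 0.01. The 8 fits that each left out 1 sample gave 143 to 1875 calls, and a group left with 1 sample was assumed to vary like the others. The share of called genes that were higher with compound 5 was 48%, and it moved to 54.3% with RLE scaling, 28.7% with upper-quartile scaling, 28.4% with library size alone, 60.6% with DESeq2, 53.4% without a filter, 53.1% with only compounds 5 and 6, 57.1% at the stricter cutoff, and to between 47.3% and 65% without 1 sample; the cause was not tested. DESeq2 shared 1038 calls, all in the same direction, and gave no adjusted p for 780 genes. It ended the calls of 14 of the 137 named genes: MT2A, DUSP5, SFRP4, SGMS1-AS1, LENG8-AS1, SLC9A3-AS1, ACADS, ACADM, CPT2, CES2, BIRC3 and NDUFB5 (adjusted p between 0.0557 and 0.126), and SYS1-DBNDD2 and MT1M, for which it gave none. The replicate block gave 1224 calls, 1145 of them shared, and ended the calls of 8 of the 137 named genes, among them CES2, BIRC3, ACADS, SLC7A1, A1BG, NDUFB5 and SFRP4, added that of VEGFA, and changed no other call among the selected genes. No named gene that was called reversed its sign. Leaving out a sample cannot turn these signs, because the groups of the called genes do not overlap. With 2 samples a group, an exact permutation test over samples cannot go below p = 0.333, so that single genes were tested only in the fit across all genes.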

Other observations

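In each of the 4 fits that left out 1 sample of compound 5 or compound 6, 108 genes were called, 71 higher and 37 lower with compound 5, and 32 of them are among the named genes. The others given here were chosen after their values were seen. The transcription factor gene BHLHA15 (MIST1), known from secretory cells, stood at 89.3 and 89.96 CPM under compound 5, 33.3 and 32.3 CPM under compound 6 and 31.3 and 28.8 CPM in DMSO (log2 difference 1.45 ± 0.10 SE, adjusted p = 0.000196). NR1D1, the clock repressor REV-ERBα, stood at 64.98 and 61.5 CPM under compound 5, 19.4 and 19.5 CPM under compound 6 and 15.9 and 12.5 CPM in DMSO (log2 difference 1.70 ± 0.14 SE, adjusted p = 0.000266). Both were closer to DMSO with compound 6 than with compound 5. SEC61A1, the translocation channel of the ER, was also called in each of these fits (870.0 and 881 CPM against 479.6 and 492 CPM, log2 difference 0.85), as were SRPRB, the anchor of the signal recognition particle receptor (0.87), and RRBP1, a ribosome-binding protein (1.09). The chemokine receptor gene CCR6, whose ligand is CCL20, had 64.98 and 63.4 CPM under compound 5, 30.2 and 31.95 CPM under compound 6 and 23.9 and 24.3 CPM in DMSO (log2 difference 1.04 ± 0.10 SE, adjusted p = 0.000756).

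Among the genes that were lower, DGAT2, which makes triglycerides, was at 13.8 and 20.4 CPM under compound 5, 55.99 and 51.7 CPM under compound 6 and 66.7 and 59.6 CPM in DMSO (log2 difference -1.65 ± 0.17 SE, adjusted p = 0.000964), and NPC1L1, the cholesterol importer, at 17.6 and 20.1 CPM under compound 5, 51.8 and 49.3 CPM under compound 6 and 47.8 and 49.9 CPM in DMSO (log2 difference -1.42 ± 0.12 SE, adjusted p = 0.000339). With compound 6 both stayed near the controls, and under compound 5 they lay below every other sample of the 3 groups. BCAM, a laminin receptor, had 63.98 and 72.3 CPM against 145 and 149 CPM (log2 difference -1.11), and LCN15, a lipocalin, 8.89 and 9.26 CPM against 31.6 and 28.2 CPM (-1.71). TXNIP, an inhibitor of thioredoxin, was lower by 0.96 on the log2 scale.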
